A study of Arabidopsis thaliana with 12 samples.

Results

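The response of wild-type Arabidopsis thaliana seedlings to green light was measured over the 1287 genes listed in the 6 wild-type tables, out of 1731 genes listed for the whole series. Seedlings that had grown in darkness for 3 days were given green light of 10 µmol m-2 s-1 without a break for 1 h (3 libraries), or were kept in darkness (3 libraries). The same treatment was given to a BES1-RNAi line, in which a transgene targets BES1 by RNA interference, again with 3 libraries in green light and 3 in darkness. That line enters here only in the comparison of the genotypes over the 633 genes listed for both, and the number of independent lines behind it is not given in the labels. Each library came from whole seedlings, so fewer cells of a type and less RNA per cell cannot be told apart. The labels do not say whether the 3 libraries of a group came from separate sets of seedlings, so the p-values measure only the spread between these libraries.

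Values are FPKM, the fragments assigned to a gene, relative to its transcript length and to the mapped fragments of the library. They are the authors' values, and the number of reads behind them is unknown. The tables hold selected genes, by a filter that the labels do not state. For 1080 of the 1287 genes the group means of green light and dark were at least 2-fold apart, and a band around equal values was nearly empty, as the plot of all listed genes shows. The share of listed genes that changed therefore describes this selection and not the genome. The edges of the band differ between the directions: among nuclear genes with a mean of at least 10 FPKM in both groups, the smallest fold of means was 1.69 for the 315 that rose and 2.31 for the 123 that fell. Of 27 marker genes chosen for parts of the seedling, 3 were in the tables, and no tissue can be checked from them.

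A seedling that germinates in darkness elongates its hypocotyl, keeps an apical hook and holds its plastids back as etioplasts. In darkness, PIF transcription factors drive elongation genes, and the COP1/SPA ubiquitin ligase removes HY5 and related activators. Light absorbed by phytochromes and cryptochromes, both of which can also be excited by green light, lowers PIF levels and restrains COP1/SPA, so that greening and pigment genes are switched on. BES1, named in the series, is a transcription factor of brassinosteroid signalling that promotes growth in darkness.

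In green light, transcripts for light signalling, the circadian clock, photoprotection, pigment synthesis and stress protection were higher than in darkness. Transcripts for shade-type elongation, auxin and brassinosteroid response, carbon starvation and sugar response, and indole defence were lower. Of the 1287 genes, 810 rose (62.9%) and 446 fell (34.7%), together 97.6%, and 31 missed the threshold, which was an adjusted p under 0.05 with limma and Benjamini-Hochberg adjustment over all 1287 genes. The green and dark libraries did not overlap for 1239 genes (96.3%). The median change over all listed genes was 0.82 on the log2(FPKM + 1) scale, on which changes of weakly expressed genes come out too small. Rising genes had a median of 1.09 with quartiles of 0.85 and 1.58, and falling genes a median of -1.33 with quartiles of -1.61 and -1.1. A change of at least 2 in size was reached by 111 rising and 50 falling genes, and a change of at least 4 by 16 rising genes and 0 falling ones.

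**Figure D1:**
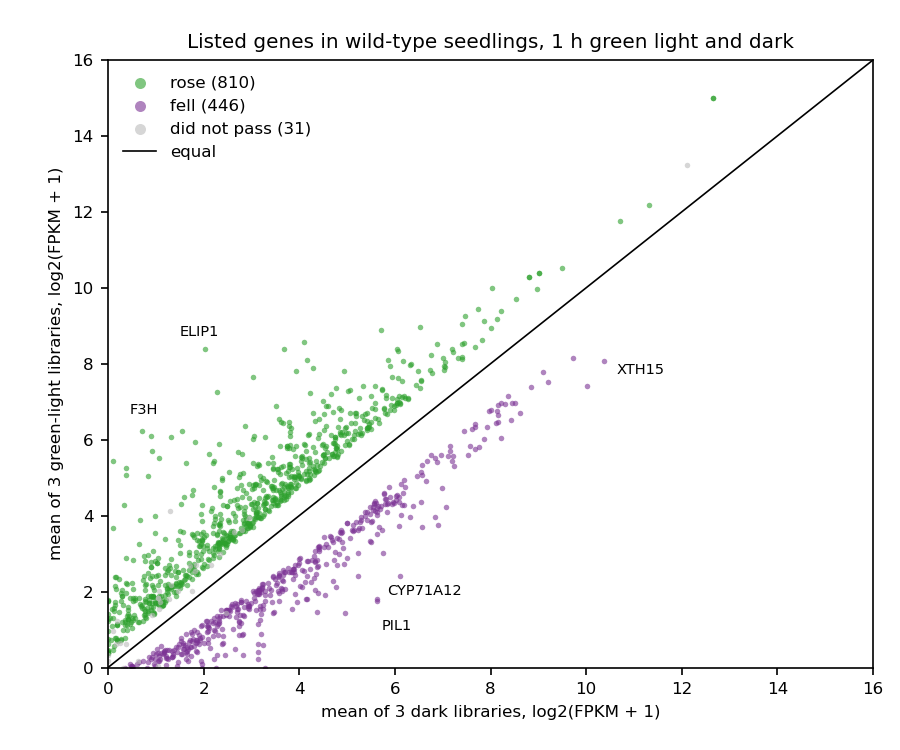
Each point is 1 of the 1287 listed genes, with the mean of log2(FPKM + 1) over the 3 dark libraries on the horizontal axis and over the 3 green-light libraries on the vertical axis. The 810 rising genes lie above the line of equal values and the 446 falling ones below it, with few genes on the line itself.

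Rising genes started low, with a median of 19.2 FPKM in green light and 6.55 FPKM in the dark. Falling genes had a median of 3.15 FPKM in green light and 10.4 FPKM in the dark. In 150 of the rising genes the dark mean was under 1 FPKM. Of these, 11 reached at least 10 FPKM in green light, among them F3H, BBX32, SIGE, BBX30, GA2OX1 and AFR. Rising genes listed at 0 in all 3 dark libraries numbered 15, and falling genes listed at 0 in all 3 green-light libraries numbered 6.

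The libraries also differed in the sum of the listed values. The listed FPKM summed to 109927, 153408 and 172431 in the green-light libraries and to 61565, 55745 and 64961 in the dark ones. A pair of ribosomal RNA loci with identical values, AT2G01020 and AT3G41979, took 35.3%, 43.9% and 61.4% of that sum in green light and 26.1%, 14.8% and 24.7% in the dark. Each of them was listed at 19426, 33636 and 52910 FPKM in green light and 8038, 4138 and 8010 FPKM in the dark. As both loci are short and FPKM divides by transcript length, the percentages above are not shares of fragments. All 3 green-light libraries were above all dark ones at these loci (log2 change 2.34 ± 0.72 SE, adjusted p = 0.014, limma), and the call was lost, with adjusted p of 0.055 to 0.068, when any 1 dark library was left out. What part ribosomal RNA has in the shift of the other values was not tested. Setting the median difference between libraries to 0 lowered every log2 change by 0.74, and then 359 genes rose (27.9%) and 458 fell (35.6%). Of the 810 rising genes, 359 rose after this median scaling too, 446 no longer passed and 5 fell, while all 446 falling genes still fell. Both ribosomal RNA loci were among those that no longer passed (1.6, adjusted p = 0.09, limma). The scaling takes the median of a selected list as unchanged, which was not tested, since genes outside the list were not used here. Counts of rising genes in lists and families are therefore given below with and without the scaling, and named rising genes that lost their call are marked. Such counts stand against the shares of all listed genes: 62.9% rose and 34.7% fell, or 27.9% and 35.6% after scaling.

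The largest increase on the log2(FPKM + 1) scale was that of ELIP1, a thylakoid protein that is induced early in light and binds pigment under light stress. It stood at 282, 387 and 344 FPKM in green light and at 2.57, 3.68 and 3.05 FPKM in the dark, 109 times higher in the means (log2 change 6.36 ± 0.15 SE, adjusted p = 1.3e-07, limma). Its relative ELIP2 had 126, 229 and 124 FPKM in green light and 4.22, 3.32 and 4.11 FPKM in the dark. Green-light library 2 was the highest for both, and no dark library came near the green ones. F3H, flavanone 3-hydroxylase of the flavonoid pathway, had 71.5, 75.3 and 77.3 FPKM in green light and 0.51, 0.84 and 0.58 FPKM in the dark, 116 times higher in the means (log2 change 5.53 ± 0.14 SE, adjusted p = 1.3e-07).

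The 250 bases before the annotated start of ELIP1 and F3H are given here because their increases were the largest on that scale and because promoters of rising genes held the G-box (CACGTG) more often than promoters of falling genes did. Capitals mark the G-box and other ACGT cores, which light-regulated bZIP and bHLH factors are known to bind. Sequences are from the RefSeq assembly TAIR10.1, 5′ to 3′ on the strand of the gene: ELIP1 at chr3:8085670-8085919 on the minus strand, and F3H at chr3:19024942-19025191 on the plus strand.
ELIP1: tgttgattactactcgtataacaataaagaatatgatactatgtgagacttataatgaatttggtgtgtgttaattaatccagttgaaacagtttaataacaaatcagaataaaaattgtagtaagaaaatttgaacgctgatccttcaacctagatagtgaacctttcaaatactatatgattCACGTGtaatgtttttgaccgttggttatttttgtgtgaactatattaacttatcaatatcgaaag
F3H: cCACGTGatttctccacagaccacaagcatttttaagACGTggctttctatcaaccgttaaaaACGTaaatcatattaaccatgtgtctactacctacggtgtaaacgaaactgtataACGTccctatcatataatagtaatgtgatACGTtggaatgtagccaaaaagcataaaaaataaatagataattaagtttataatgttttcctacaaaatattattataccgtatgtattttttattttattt
The ELIP1 stretch holds 1 G-box, which begins 66 bases before the start. The F3H stretch holds 1 G-box at its far end, 249 bases before the start, and 5 ACGT cores in all.

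Regulators were among the other large increases. BBX32, a B-box zinc finger protein, had 44.6, 45.8 and 38.3 FPKM in green light, and in the dark it was listed at 0 in 2 libraries and at 0.23 FPKM in the other. Its relative BBX30 had 40.5, 32.3 and 39.1 FPKM in green light and 0.33, 0 and 0.64 FPKM in the dark. SIGE, a nuclear-encoded sigma factor that directs the plastid RNA polymerase to light-responsive plastid genes, had 63.6, 66.5 and 71.7 FPKM in green light and 0.61, 1.01 and 1.02 FPKM in the dark. The green-light libraries of all 3 genes were tightly grouped and far above the dark ones, with log2 changes of 5.35, 4.88 and 5.19.

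GA2OX1, which inactivates gibberellins, had 51.4, 47.1 and 56.3 FPKM in green light and 0.71, 0.66 and 1.37 FPKM in the dark. AFR, an F-box protein of phytochrome A signalling, had 37.0, 24.7 and 37.6 FPKM in green light, and in the dark it was listed at 0 in 2 libraries and at 1.21 FPKM in the other. ABCI21, of the ABC transporter family, had 332, 323 and 339 FPKM in green light and 13.8, 10.05 and 11.6 FPKM in the dark. These rises were 4.80, 4.69 and 4.71 on the log2 scale. Groups without overlap were a condition for the 12 largest changes named per direction. The remaining members of the 12 largest increases were PRR9 (4.69), a clock gene, AT3G56290 (4.76), annotated as a potassium transporter, and AT3G02910 (4.63), annotated as AIG2-like.

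The largest decrease on the same scale was that of PIL1, a bHLH protein of the PIF family that marks the shade response. It had 1.35, 2.52 and 3.67 FPKM in green light and 45.8, 48.9 and 51.7 FPKM in the dark, 19.4 times higher in the dark (log2 change -3.88 ± 0.24 SE, adjusted p = 4.8e-06, limma). The groups lay far apart and the dark libraries were close together. CYP71A12, a cytochrome P450 of indole defence compounds, had 1.34, 1.35 and 6.77 FPKM in green light and 67.0, 17.3 and 95.2 FPKM in the dark (log2 change -3.82 ± 0.68 SE, adjusted p = 0.00097). Here dark library 2 lay far below the other dark libraries, although still above all green-light ones.

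The same stretches of PIL1, at chr2:19297859-19298108, and of CYP71A12, at chr2:13101372-13101621, both on the minus strand of TAIR10.1, are shown for comparison with those of the rising genes.
PIL1: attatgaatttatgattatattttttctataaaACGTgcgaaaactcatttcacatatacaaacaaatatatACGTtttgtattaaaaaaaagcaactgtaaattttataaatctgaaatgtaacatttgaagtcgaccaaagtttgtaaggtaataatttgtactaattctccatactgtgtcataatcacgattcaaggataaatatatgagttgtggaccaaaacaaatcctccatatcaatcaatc
CYP71A12: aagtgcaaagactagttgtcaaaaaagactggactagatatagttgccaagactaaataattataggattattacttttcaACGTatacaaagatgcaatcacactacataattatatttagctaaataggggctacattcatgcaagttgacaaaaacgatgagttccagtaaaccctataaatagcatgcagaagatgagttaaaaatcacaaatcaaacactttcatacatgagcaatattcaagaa
PIL1 has 2 ACGT cores and CYP71A12 has 1, and neither stretch holds a CACGTG.

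RTFL21, a small peptide of the ROTUNDIFOLIA-like family, some of which limit cell proliferation when overexpressed, had 4.66, 4.03 and 4.22 FPKM in green light and 73.5, 60.7 and 71.6 FPKM in the dark. BT2, a BTB and TAZ domain protein that responds to sugar and nitrate, had 11.02, 17.61 and 9.7 FPKM in green light and 108, 140 and 112 FPKM in the dark. ST2A, a sulfotransferase that acts on hydroxyjasmonate, had 21.3, 16.7 and 15.8 FPKM in green light and 130, 139 and 131 FPKM in the dark. The log2 changes of these 3 genes were -3.71, -3.16 and -2.83. GRF7, a growth-regulating transcription factor, fell by 2.75 and the uncharacterized gene AT5G57760 by 2.86. The long non-coding RNAs AT1G09103 and AT2G07805 fell by 3.52 and 2.91, with at least 1 green-light library listed at 0 for each.

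**Figure D2:**
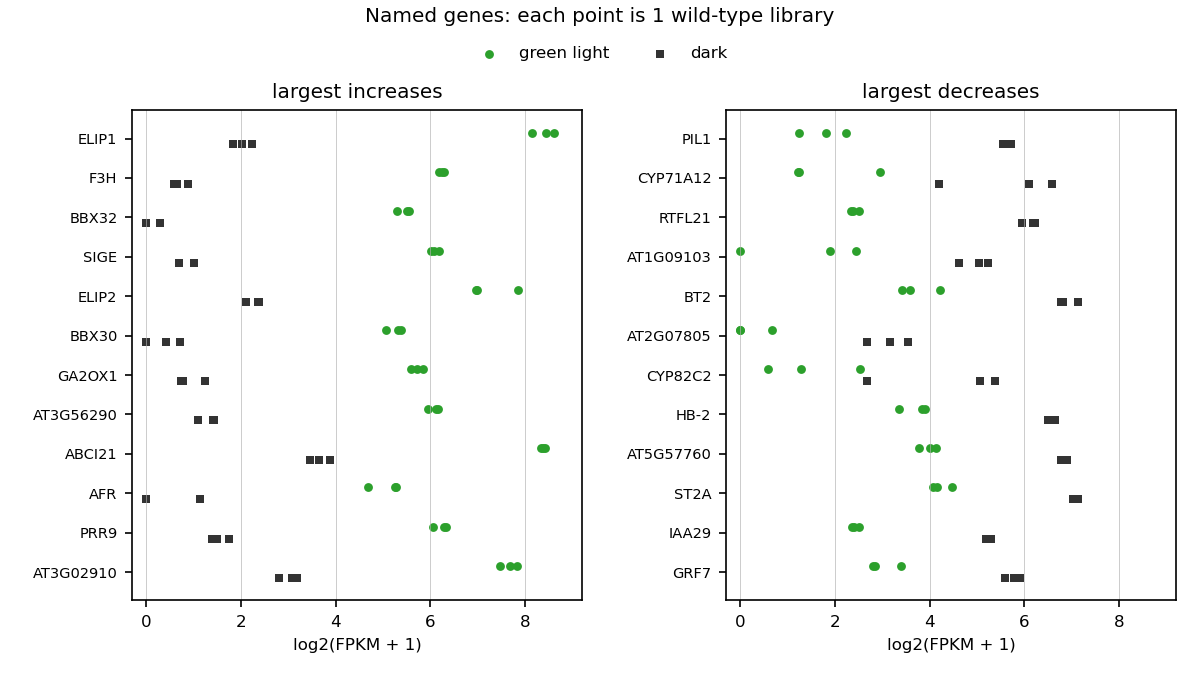
Values of log2(FPKM + 1) in each of the 3 green-light libraries (circles) and 3 dark libraries (squares). On the left are the 12 genes with the largest increases and on the right the 12 with the largest decreases. Only called genes without overlap between the groups were taken, with at least 1 FPKM in the higher group. SAE1B (-3.28), whose groups overlap, was left out by this rule. CYP71A12 and CYP82C2 have the widest dark groups, with dark library 2 the lowest.

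Among light signalling genes, those that restrain the pathway rose together. Of 8 listed brakes and partners of the COP1 ligase, 5 were in the tables and 5 rose, with a median of 2.42 against 0.82 for all genes, and 5 rose after median scaling. RUP2, which returns the UV-B receptor to its inactive form, had 37.5, 43.9 and 40.6 FPKM in green light and 2.34, 1.82 and 2.09 FPKM in the dark. SPA1, a partner of COP1, had 64.9, 57.8 and 69.3 FPKM in green light and 7.92, 6.73 and 6.93 FPKM in the dark. The groups were far apart for both, and RUP1, SPA3 and SPA4 rose by 2.42, 2.35 and 1.28.

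Receptor partners went in both directions. RPT2, which works with phototropin in phototropism, had 390, 350 and 393 FPKM in green light and 18, 16.1 and 14.3 FPKM in the dark. PKS1, a phytochrome-binding protein of the same responses, had 113, 116 and 122 FPKM in green light and 11.6, 9.77 and 9.99 FPKM in the dark. Both were higher in all green-light libraries, by 4.47 and 3.37 on the log2 scale. FHY1, which carries phytochrome A into the nucleus, had 18.7, 18.1 and 22.3 FPKM in green light and 75.2, 61.1 and 65.2 FPKM in the dark. Its homologue FHL fell by 1.09, and the blue light receptor gene PHOT1, the only 1 of 13 listed photoreceptor genes in the tables, fell by 1.35. CRY3, an organelle cryptochrome gene outside that list, had 39.5, 41.1 and 47.1 FPKM in green light and 3.86, 3 and 4.2 FPKM in the dark, a rise of 3.22.

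Of 15 listed light transcription factors 8 were measured, of which 7 rose and 1 fell (median 1.89). After median scaling 5 rose and 1 fell. HY5, the bZIP factor that activates photomorphogenesis genes, had 250, 219 and 236 FPKM in green light and 18, 18.1 and 20 FPKM in the dark. Its homologue HYH had 42.5, 57.1 and 45.5 FPKM in green light and 3.22, 3.41 and 3.33 FPKM in the dark. The spread within groups was small beside these rises of 3.58 and 3.5. GLK2, which activates photosynthesis genes, rose by 2.88, and the greening regulator CGA1, at 7.93, 10.2 and 7.62 FPKM in green light against 0.63, 0.45 and 0.62 FPKM in the dark, rose by 2.61. GATA2 was the member that fell, at 21.9, 18.9 and 24.6 FPKM in green light and 71.7, 63.1 and 66.0 FPKM in the dark.

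B-box proteins, zinc finger regulators that bind HY5 or compete with it, had 12 of 23 listed genes in the tables. Of these 10 rose and 2 fell (median 2.01), and 9 rose and 2 fell after median scaling. BBX25, a repressor of photomorphogenesis, had 38.3, 51.6 and 46.1 FPKM in green light and 0.80, 1.04 and 1.5 FPKM in the dark. The falling members were BBX23, at 0.54, 0.54 and 0.45 FPKM in green light against 12.2, 8.75 and 5.51 FPKM in the dark, and BBX17, with a change of -2. Neither had overlapping groups.

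Genes of the shade response, which is driven by PIFs and promotes elongation, had 6 of 11 listed members in the tables, and all 6 fell, with a median of -2.12. HB-2, the homeobox gene also called ATHB2, had 13.3, 9.2 and 13.9 FPKM in green light and 88.7, 98.4 and 96.7 FPKM in the dark. Its relative HAT3 had 10.6, 8.20 and 8.76 FPKM in green light and 45.1, 44.4 and 41.2 FPKM in the dark. Green and dark libraries were well separated for both. The related homeobox gene HB-4 fell by 1.77, the growth inhibitor PAR1 by 2.09 and FLP1 by 1.56. HB52, a homeobox gene outside that list, fell by 2.36. The PIF genes PIF5 (0.88) and PIF7 (0.85), outside the list, rose, but did not pass after median scaling.

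**Figure D3:**
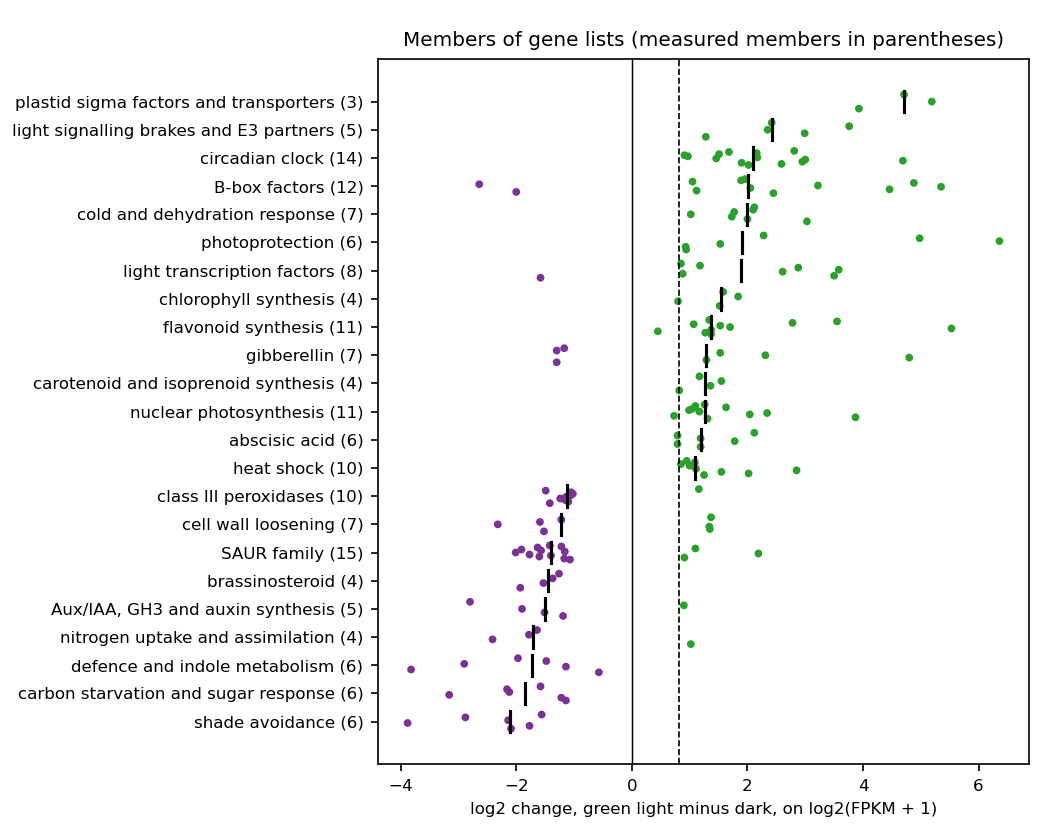
Log2 change, green light minus dark, of each measured member of the gene lists and families, with a short bar at the median of each and a dashed line at the median of all 1287 genes (0.82). Light signalling, clock, pigment and stress lists lie to the right, and shade, auxin, brassinosteroid, sugar and defence lists to the left.

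The circadian clock, a loop of morning and evening regulators that light can reset, had 14 of 24 listed genes in the tables. All 14 rose, with a median of 2.09, and 12 rose after median scaling. PRR9, a morning pseudo-response regulator, had 79.2, 65.7 and 77.4 FPKM in green light and 2.34, 1.60 and 1.83 FPKM in the dark. CCA1, a morning MYB repressor, had 154, 136 and 160 FPKM in green light and 18.9, 16 and 18.6 FPKM in the dark. ELF4, a component of the evening complex, had 49.8, 40.5 and 60.7 FPKM in green light and 4.99, 7.93 and 4.25 FPKM in the dark. All of these values were higher in green light without overlap, so morning and evening components stood high at the same sampling time. Further members that rose were LNK1 (2.81), RVE7 (2.59), LNK3 (2.17), RVE1 (2.16), LHY (2.02) and GI (1.90). PRR7 (0.91) and LNK2 (0.97) were the members that no longer passed after median scaling.

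Plastid and photosynthesis genes also rose, and fewer of them did so after median scaling. Of 34 listed nuclear photosynthesis genes 11 were in the tables and all 11 rose (median 1.26), and 5 rose after median scaling. LHCB1.1, a chlorophyll-binding antenna protein of photosystem II, had 176, 323 and 193 FPKM in green light and 11.9, 14.4 and 16.8 FPKM in the dark, a rise of 3.87. It has near-identical copies, and the labels do not say how reads shared between them were assigned. LHCB3 had 478, 690 and 526 FPKM in green light and 237, 235 and 225 FPKM in the dark, a rise of 1.26. Green-light library 2 was the highest of its group for both. LHCB1.5 had 1033, 941 and 314 FPKM in green light and 286, 337 and 275 FPKM in the dark, so that green-light library 3 overlapped the dark group (log2 change 1.17 ± 0.42 SE, adjusted p = 0.026, limma). That call was lost after median scaling (0.43, adjusted p = 0.41). It was also lost without green-light library 1 (0.87, adjusted p = 0.078) or green-light library 2 (0.93, adjusted p = 0.098), and also without dark library 1 (1.14, adjusted p = 0.067) or dark library 3 (1.12, adjusted p = 0.061). RBCS1B, a small subunit of Rubisco, rose by 1.1 and did not pass after median scaling (0.36).

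Genes for handling pigment and light followed. Of all listed genes 62.9% rose, and 27.9% rose after scaling, so a list of 4 members that all rose says little by itself. All 6 measured of 8 photoprotection genes rose (median 1.91, with 4 after scaling), among them VTC2 of ascorbate synthesis (2.28). All 4 measured of 19 chlorophyll synthesis genes rose (median 1.55, with 3 after scaling), led by GUN4 (1.84), which activates magnesium chelatase, and CHLH (1.58), a subunit of that enzyme. All 4 measured of 14 carotenoid and isoprenoid genes rose (median 1.26, with 3 after scaling), including PSY, phytoene synthase, the entry enzyme (1.36). SIGE, ABCI21 and ABCI20 (3.93) were the measured members of the 10 listed plastid sigma factors and transporters. The annotation of ABCI21 and ABCI20 does not place them in the plastid.

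The flavonoid pathway makes sunscreen pigments from phenylalanine. Its list had 11 of 25 genes in the tables and all 11 rose, with a median of 1.37, and 8 rose after median scaling. CHS, the entry enzyme chalcone synthase, had 13.6, 31.6 and 15.2 FPKM in green light and 1.89, 2.21 and 1.55 FPKM in the dark, with green-light library 2 again highest. UGT78D2, a flavonoid glucosyltransferase, had 59.6, 54.4 and 59.0 FPKM in green light and 3.78, 3.49 and 4.85 FPKM in the dark. The MYB regulators were rare transcripts. PAP1, which activates anthocyanin genes, had 1.38, 1.77 and 1.26 FPKM in green light and was listed at 0.07, 0 and 0 FPKM in the dark. MYB12, which activates flavonol genes, had 1.90, 1.63 and 1.89 FPKM in green light and 0.09, 0 and 0.18 FPKM in the dark.

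Hormone genes of elongation growth were mostly lower. Auxin acts through the short-lived Aux/IAA repressors and induces GH3 and SAUR genes, and 5 of 24 listed Aux/IAA, GH3 and synthesis genes were in the tables. Of these 4 fell and 1 rose (median -1.51). IAA29 had 4.29, 4.14 and 4.65 FPKM in green light and 35.9, 35.3 and 38.1 FPKM in the dark. IAA19 had 95.5, 81.3 and 98 FPKM in green light and 333, 359 and 342 FPKM in the dark. Both fell without overlap, by 2.80 and 1.90, and GH3.3, which conjugates auxin to amino acids, fell by 1.51. The GH3 gene DFL2 rose by 0.90 and did not pass after median scaling (0.16). IAA28, an Aux/IAA gene outside the list, went the other way from IAA19 and IAA29, with 65.3, 49.1 and 58.8 FPKM in green light and 11, 13.8 and 14.7 FPKM in the dark, a rise of 2.05.

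SAUR genes, which encode small proteins that promote cell expansion, had 15 of 79 annotated members in the tables. Of these 12 fell and 3 rose (median -1.4), and after median scaling 12 fell and 1 rose. SAUR19 had 17.0, 20.7 and 18.9 FPKM in green light and 50.8, 70.0 and 61.2 FPKM in the dark. The member that went furthest the other way was AT4G12410, at 10.3, 6.87 and 11.7 FPKM in green light and 1.57, 0.95 and 1.35 FPKM in the dark. Near-identical SAUR copies make single members uncertain.

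Of 18 listed brassinosteroid genes 4 were measured and all 4 fell (median -1.45). PRE6, a small bHLH protein that promotes elongation, had 40.9, 35.0 and 40.0 FPKM in green light and 138, 166 and 146 FPKM in the dark. BEE3, a brassinosteroid-induced bHLH gene, had 2.89, 1.63 and 5.53 FPKM in green light and 9.21, 11.5 and 11.5 FPKM in the dark. The dark libraries were higher throughout for both.

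The gibberellin list had 7 of 22 genes in the tables, of which 4 rose and 3 fell, also after median scaling. The rising ones were the inactivating 2-oxidases GA2OX1, GA2OX2 (1.29) and GA2OX8 (1.53), and the synthesis gene GA3OX2, at 5.93, 5.07 and 7.65 FPKM in green light and 0.78, 0.34 and 0.25 FPKM in the dark. GA2OX7, outside the list, was under 1 FPKM in every library and rose by 0.42, with -0.32 after scaling. The falling ones of the list were the synthesis genes GA20OX2 (-1.17) and GA20OX3 (-1.30), and GAI (-1.30), a DELLA repressor of gibberellin response. Of the 3 measured of 22 ethylene and hook genes, the synthesis gene ACS8 fell by 1.57 and HLS1, which maintains the apical hook, by 1.43, while ERF11 rose by 0.82 but did not pass after scaling.

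Of 19 listed cell wall loosening genes 7 were measured, of which the 4 xyloglucan-modifying genes fell and the 3 expansins rose. XTH15, the most abundant of them, had 276, 238 and 287 FPKM in green light and 1482, 1199 and 1341 FPKM in the dark. EXPA1 had 83.7, 83.0 and 89.2 FPKM in green light and 32.8, 31.9 and 34.5 FPKM in the dark. Of the xyloglucan-modifying genes outside the list, XTH8 fell by 1.26, but XTH32 rose by 2.11, with 41.6, 47.6 and 47.3 FPKM in green light and 9.88, 10.9 and 8.56 FPKM in the dark. XTH15 fell by 2.32 and EXPA1 rose by 1.34, and EXPA1 and EXPA10 but not EXPA2 passed after median scaling. Other wall proteins that fell were the arabinogalactan protein AGP2 (-1.93) and the extensin-like LRX2 (-2.10).

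Growth-related peptides and factors were looked up after their values were seen, because RTFL21 and GRF7 were among the largest decreases. Of 22 annotated RTFL peptide genes 7 were in the tables, and 5 fell and 2 rose, with a median of -1.30. RTFL1 was listed at 0, 0 and 0.21 FPKM in green light against 3.46, 2.65 and 2.62 FPKM in the dark, and RTFL13 fell by 1.99. The rising members, RTFL3 and RTFL5, did not pass after median scaling. Both measured members of 9 annotated growth-regulating factors, GRF7 and GRF2 (-1.85), fell.

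Stress genes rose together, although neither temperature nor drought differs between the labels of the groups. All 7 measured of 13 cold and dehydration genes rose (median 2, with 5 after scaling). GOLS3, galactinol synthase of raffinose synthesis, had 82.0, 55.5 and 66.4 FPKM in green light and 7.11, 7.48 and 7.47 FPKM in the dark. CBF2, an activator of cold genes, had 13.5, 10.7 and 8.72 FPKM in green light and 2.31, 2 and 1.59 FPKM in the dark. All green-light libraries were above the dark ones for both, but KIN1, at 8.38, 6.35 and 2.64 FPKM in green light against 0.33, 0.56 and 2.08 FPKM in the dark, did not pass after scaling.

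All 10 measured of 19 heat shock genes rose (median 1.1, with 7 after scaling). Among all listed genes 62.9% rose and 27.9% did so after scaling, and the median of the rising ones was 1.09. MBF1C, a coactivator of heat tolerance, had 97.9, 73.6 and 91.5 FPKM in green light and 10.6, 9.60 and 13.9 FPKM in the dark. The heat shock factor HSFA2 rose by 2.02 and the chaperone HSP70 by 1.55. Green-light library 1 was the highest of its group in 10 of the 10, against 505 of all 1287 genes. All 6 measured of 19 abscisic acid genes rose (median 1.19, with 3 after scaling), among them COR78 (2.12), HB-12 (1.78) and the bZIP factor ABF3 (1.19). THI2.2, an antimicrobial thionin of the jasmonate list, had 24.3, 38 and 35.4 FPKM in green light and 0.77, 1.2 and 0.47 FPKM in the dark.

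Genes linked to low sugar or to sugar response fell. All 6 measured of 22 genes of carbon starvation and sugar response fell, with a median of -1.85. DIN10, a raffinose synthase-like gene induced in darkness, had 343, 219 and 298 FPKM in green light and 869, 891 and 782 FPKM in the dark. EXO, annotated as a phosphate-responsive family protein, had 66.1, 60.7 and 70.4 FPKM in green light and 295, 292 and 304 FPKM in the dark. The groups lay apart for both. DIN11, at 0.38, 0.08 and 0.34 FPKM in green light and 6.38, 0.73 and 11.8 FPKM in the dark, was far less even, and without green-light library 2 its adjusted p was 0.05 with a change of -2.01. BT1, a relative of BT2, fell by 2.21.

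Of 11 nitrogen genes 4 were measured, of which 3 fell and 1 rose (median -1.71). NIA2, nitrate reductase, had 5.75, 12 and 6.85 FPKM in green light and 23.1, 36.2 and 30 FPKM in the dark. HRS1, a repressor in nitrate and phosphate signalling, had 3.25, 3.85 and 1.94 FPKM in green light and 16.8, 22.1 and 21.3 FPKM in the dark. The nitrate-induced repressor LBD39 fell by 1.64. The transporter gene NRT2.1 rose by 1.02 and did not pass after median scaling (0.28). Transporter genes outside the list rose too: NRT2.2 by 1.60, also after scaling (0.86), and NRT2.5 (0.93) and AMT1;2 (0.89) without scaling only. NRT2.4, at 0.29 to 0.31 FPKM in green light and listed at 0 in the dark, rose by 0.38, but its direction turned after scaling (-0.36).

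Defence genes fell, on values that were uneven in the dark. All 6 measured of 24 defence and indole genes were lower in green light (median -1.73). CYP82C2, of indole cyanogenic defence, had 1.44, 0.51 and 4.78 FPKM in green light and 40.6, 5.44 and 32.2 FPKM in the dark. CYP81F2, of indole glucosinolate modification, had 11.3, 6.85 and 21.1 FPKM in green light and 46.8, 32.1 and 81.2 FPKM in the dark. CYP79B2, at the entry of the indole pathways, had 16.4, 16.6 and 24.7 FPKM in green light and 60.1, 27.9 and 96.2 FPKM in the dark. Dark library 2 was the lowest dark library in 6 of the 6 genes, against 506 of all 1287, and green-light library 3 was the highest of its group in 6 of the 6. The salicylic acid-linked factor WRKY70 fell by 1.14.

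Class III peroxidases, wall enzymes that include defence members, had 10 of 62 annotated genes in the tables, of which 9 fell and 1 rose (median -1.12), also after median scaling. Dark library 2 was lowest in 9 of the 10. PRXCA had 0.75, 0.33 and 1.64 FPKM in green light and 14.8, 0.89 and 24.8 FPKM in the dark, with dark library 2 inside the green group (log2 change -2.32 ± 0.87 SE, adjusted p = 0.031, limma). Its adjusted p was between 0.058 and 0.10 without any 1 library other than dark library 2. CCOAMT, annotated as a caffeoyl-CoA methyltransferase, had 3.36, 2.06 and 7.66 FPKM in green light and 36, 8.26 and 51.5 FPKM in the dark (-2.43). The peroxidase AT5G39580 fell by 1.49, and AT5G64110 was the one that rose (1.16).

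**Figure D4:**
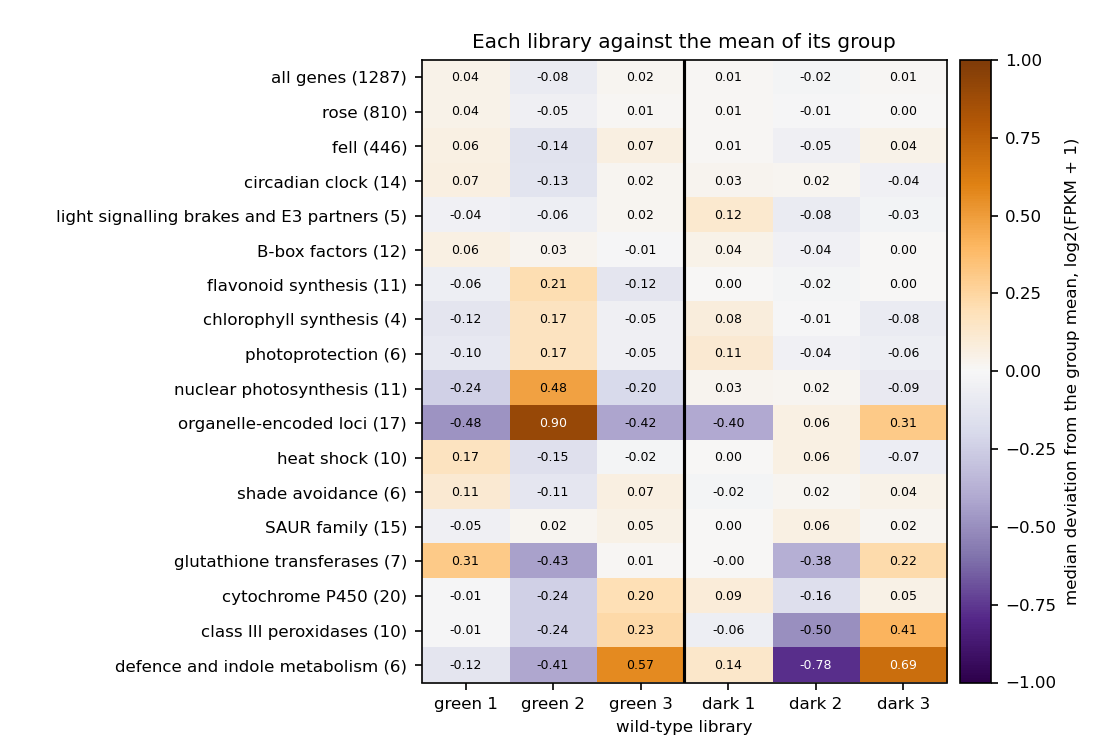
Median over the genes of each list of a library's deviation from the mean of its own group, on log2(FPKM + 1), for the 3 green-light and the 3 dark libraries. Dark library 2 is low for defence genes (-0.78) and peroxidases (-0.50), and green-light library 2 is high for organelle-encoded loci (0.90) and nuclear photosynthesis genes (0.48).

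Libraries of a group thus differed along gene groups. Green-light library 2 was the highest of its group in 10 of the 11 nuclear photosynthesis genes and in 17 of the 17 organelle-encoded loci, against 334 of all 1287 genes. The organelle loci did not give a firm response: 9 of 17 rose and 8 did not pass, and 0 of 17 rose after median scaling. The chloroplast locus ATCG00920, for example, had 733, 2582 and 1042 FPKM in green light and 436, 352 and 571 FPKM in the dark (1.49, and 0.97 without green-light library 2). The seed albumin gene SESA5, the only measured seed storage marker of 8, had 5417, 5249 and 3616 FPKM in green light and 2242, 3038 and 2453 FPKM in the dark (0.87, adjusted p = 0.031, limma). It did not pass after median scaling (0.13), nor without green-light library 1 or dark library 1 or 3 (0.77 to 0.84). The part of these library differences in the light response was not tested.

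The genes with the widest spread within a group also included SAE1B, a subunit of the SUMO-activating enzyme. The reference gives the same symbol to a further locus, so the assignment of reads to it is uncertain. SAE1B was listed at 0 in all 3 green-light libraries and at 33.1, 0 and 25.7 FPKM in the dark (adjusted p = 0.028, limma), and leaving out any 1 library other than dark library 2 gave adjusted p of 0.055 to 0.097. The small nucleolar RNA AT2G08770 had 1.11, 61.0 and 39.3 FPKM in green light and 5.10, 0 and 1.42 FPKM in the dark and did not pass (adjusted p = 0.055). It passed without green-light library 1, with a change of 4.35 and adjusted p = 0.00083, and without dark library 1, with 3.48 and adjusted p = 0.048.

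Other enzyme and regulator families went both ways. Of 19 measured AP2/ERF factors 12 rose and 6 fell (median 0.96), and 5 rose and 6 fell after median scaling. The share that rose was 63.2%, against 62.9% of all listed genes, a share near the background. SMZ, a repressor of flowering, had 114, 122 and 117 FPKM in green light and 23.8, 20.1 and 23.8 FPKM in the dark, and its relative SNZ rose by 2.55. AT1G77200 of the same family had 1.93, 2.57 and 2.97 FPKM in green light and 17.0, 14.4 and 19.2 FPKM in the dark. Of 26 measured UDP-glycosyltransferases 20 rose (76.9%) and 4 fell (median 0.73), with 7 and 6 after scaling, and UGT84A2, which makes sinapoylglucose, rose by 2.52. Of 44 measured protein kinases 16 rose and 27 fell (median -0.78), with 6 and 27 after scaling. MAPKKK13 (2.79) and MAPKKK14 (2.59) rose, also after scaling. Among glutathione transferases, detoxifying enzymes, GSTU5 rose by 2.25 and GSTF6 fell by 1.67. All 4 measured calcium-binding proteins fell, CAM8 by 2.09. The ferric reductase gene FRO7 rose by 1.80.

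Non-coding transcripts changed too. MIR163 encodes the precursor of a microRNA that is known to silence methyltransferase genes of the salicylate family. The precursor had 56.6, 54.4 and 70.0 FPKM in green light and 2.3, 3.03 and 2.26 FPKM in the dark (log2 change 4.12 ± 0.15 SE, adjusted p = 5e-07, limma). These are reads of the long precursor and not of the mature microRNA. PXMT1, a methyltransferase gene of that family 9.3 kb away, was looked at after its values were seen. It had 18.5, 15.6 and 25.7 FPKM in green light and 98.5, 44.3 and 179 FPKM in the dark, so that it fell without overlap (-2.18 ± 0.45 SE, adjusted p = 0.0021), with dark library 2 the lowest dark library.

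The mature microRNA, at chr1:24884359-24884382 on the plus strand, is printed with its seed (bases 2 to 8) in capitals. Below it is the stretch of the PXMT1 transcript, at chr1:24874307-24874330 on the minus strand, with the fewest unpaired bases. Capitals in it mark the bases that form no A-U or G-C pair when no gap is allowed, so G-U pairs count as unpaired. Both are from RefSeq TAIR10.1.
miR163: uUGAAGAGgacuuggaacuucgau
PXMT1 stretch: CATCGagttccaagtcctcttcaa
In this stretch 5 of 24 bases counted as unpaired without a gap, against 10 in the next best stretch of the transcript. With a gap, more of the marked bases could pair. Whether the microRNA silences PXMT1 in these seedlings was not tested.

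Of 40 measured long non-coding RNAs 26 rose and 11 fell (median 0.82, as for all genes), and after median scaling 7 rose and 11 fell. AT2G08650 had 12, 10.8 and 12.7 FPKM in green light and 0, 0.11 and 0.13 FPKM in the dark. It overlaps the protease gene AT2G34080 (1.39), which is read in the opposite direction. In the same way AT3G51238 (1.78), at chr3:19025110-19026779, overlaps most of F3H, at chr3:19025192-19026872. The labels do not say whether the libraries keep strand, so reads of such partners cannot be told apart. This concerns 317 of the 1287 genes, which overlap an annotated gene on the other strand. MIR2936 fell by 2.59, but it lies on the same strand within the stretch of SAG21, which fell by 1.68, and their reads cannot be told apart either.

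Promoters of the rising genes differed from those of the falling ones in short motifs. In the window from 250 bases before to 50 after each annotated start, with either strand searched, the G-box CACGTG was found in 17.8% of 769 rising genes, 7.16% of 433 falling genes and 7.68% of all 27437 promoters. Among the 105 rising genes with a change of at least 2 it was found in 23.8%. The ACGT core, which every G-box contains, was found in 63.8% of rising, 54.0% of falling and 49.9% of all promoters. The W-box core TTGACC, bound by WRKY factors, was found in 12.5% of rising, 18.9% of falling and 14.2% of all promoters. Telo box (AAACCCTA) and site II (TGGGCC) motifs, known from ribosomal protein genes and other housekeeping genes, were scarce in both directions. The telo box was found in 1.43% of rising, 2.54% of falling and 6.22% of all promoters, and site II in 10.7%, 7.85% and 15.5%. For the E-box (CANNTG, which every G-box also matches) the shares were 68.9%, 64.9% and 61.7%, and for the evening element core AATATCT 14.2%, 13.9% and 11.5%. A match is a string of letters and not a shown binding site, and no test was made.

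**Figure D5:**
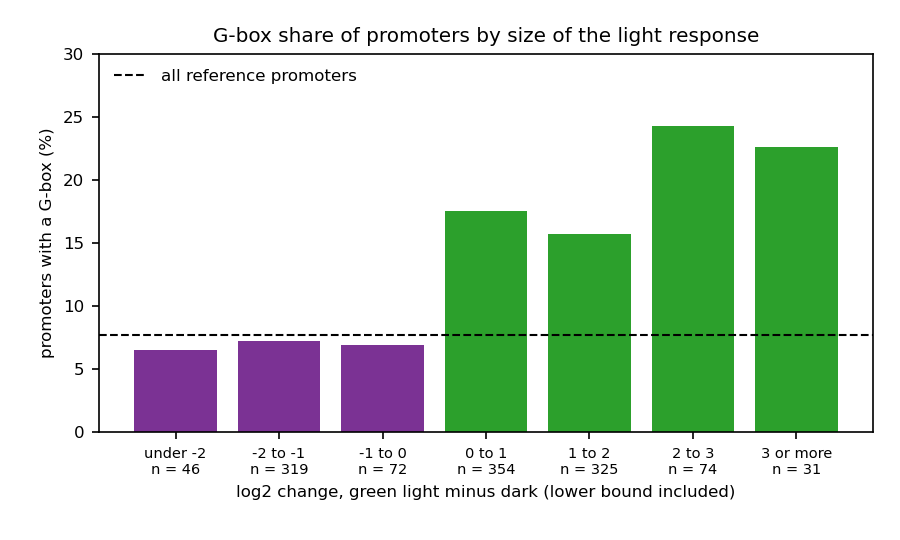
Share of promoters with a G-box (CACGTG, either strand, 250 bases before to 50 after the annotated start) for protein-coding genes in bands of log2 change, green light minus dark, with the number of genes under each bar. Bands of rising genes lie between 15.7% and 24.3%, bands of falling genes between 6.52% and 7.21%, and the dashed line marks all reference promoters (7.68%).

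Genes with a single exon made up 26.8% of rising, 34.2% of falling and 20.8% of all protein-coding genes, and median transcript lengths were 1533, 1495 and 1514 bases. The share of rising genes lay between 60.5% and 65.4% on each of the 5 chromosomes. Of 96 pairs of adjacent genes that both changed, 82 went in the same direction (85.4%), against 54.2% of all pairs of changed genes. Of the 71 such pairs that do not overlap, 59 went in the same direction (83.1%). They include adjacent members of one family, such as GSTF7 and GSTF6, NRT2.1 and NRT2.2, or KIN1 and KIN2. Similar copies may share reads, and such pairs were not set apart.

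Over the 633 genes listed for both genotypes, the light response of wild type was compared with that of BES1-RNAi. The change was higher in wild type for 67 genes (10.6%) and lower for 112 (17.7%), with limma on the interaction of genotype and light and adjusted p under 0.05. After median scaling the split turned to 114 higher and 62 lower, so the balance between the directions depends on the scaling. RPT2 rose by 4.47 in wild type and by 3.28 in BES1-RNAi (difference 1.19 ± 0.13 SE, adjusted p = 1.4e-05). Its mean FPKM in green light and dark was 378 and 16.1 in wild type and 574 and 58.2 in BES1-RNAi. The smaller change in BES1-RNAi thus went with higher levels in both conditions. CGA1 rose by 2.61 in wild type and by 4.68 in BES1-RNAi (difference -2.08 ± 0.22 SE, adjusted p = 7.7e-06). Its mean FPKM in green light and dark was 8.59 and 0.567 in wild type and 94.9 and 2.76 in BES1-RNAi. On the log2(FPKM + 1) scale the change at the lower wild-type levels comes out too small, so part of this difference can come from the scale. The differences of RPT2 and CGA1 kept their sign and passed after median scaling, at 1.4 and -1.87.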

How the data were processed

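Gene-level FPKM values were used as the authors deposited them, given to 2 decimals for 6 wild-type and 6 BES1-RNAi libraries. Per the submitters' processing notes, the build was TAIR10 and the tools were DESeq 1.18.0, TopHat, Bowtie2, Cufflinks, HISAT2 2.2.1.0 and Trimmomatic 0.36, listed without role or order. Per the labels' protocols, an Illumina TruSeq RNA kit was used on total RNA from RNAiso Plus extraction. Strand, read depth and the handling of multiply matching reads were not stated there, so no counting intervals could be given. FPKM is relative to the library total, so an abundant RNA that takes a changing share of it can shift all other values.

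Tests were made on log2(FPKM + 1) with limma 3.58.1 (R 4.3.3) and an intensity trend, without further scaling, two-sided, with Benjamini-Hochberg adjustment. The wild-type response was fitted on 6 libraries and 1287 genes, and the genotype difference on 12 libraries and 633 genes. Changes are given ± SE. On simulated data with 200 changed genes, the wild-type fit recovered 40.3%, 76.1% and 92.4% of changes of 0.5, 1 and 2 on the log2 scale, with 11 false calls, and the fit of the genotype difference recovered 32.8%, 79.1% and 92.4%, with 9 false calls. Symbols, promoters and overlaps came from the RefSeq annotation of TAIR10.1, which held 1270 of the 1287 loci, and the other 17 are organelle loci.

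The gene lists and families were chosen with earlier results of these data known, as was the comparison itself. Of 544 list entries 530 matched a symbol, and 160 loci were in the tables. Lists on auxin transport, cytokinin and reactive oxygen, and markers of stomata, vasculature, shoot meristem and epidermis, had 0 measured members. Named genes were the 12 largest changes per direction without overlap and with at least 1 FPKM in the higher group. They further included list and family members (all up to 8, otherwise the 8 of lowest adjusted p), the 6 with the widest spread and, for the genotypes, the 6 of lowest adjusted p per direction. ELF4, PRR7, LNK2, LNK3, BBX23, LHCB1.5, PXMT1, GRF2, SAG21, AT2G34080, the further RTFL genes and the genes given as outside a list fall outside this rule and were chosen after their values were seen, and values of every library are given for more genes than first planned.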

Additional observations from a re-analysis of the deposited data

Results flagged for a closer look

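For 12 of the 633 genes listed in both genotypes, the light response was compared between wild type and BES1-RNAi because their interaction of genotype and light had the lowest adjusted p in either direction (limma, Benjamini-Hochberg over 633 genes). Differences are wild type minus BES1-RNAi on the log2(FPKM + 1) scale, from 3 libraries in each of 4 groups, and no explanation was tested. The tables of both genotypes hold selected genes, and the labels do not state the filter.

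The response was higher in wild type for 6 of them. RPT2 changed by 4.47 in wild type and by 3.28 in BES1-RNAi (difference 1.19, adjusted p = 1.4e-05). Its mean FPKM was higher in BES1-RNAi in both darkness (58.2 against 16.1) and green light (574 against 378). RVE7, a clock MYB gene, changed by 2.59 and 1.15 (difference 1.44, adjusted p = 2.2e-05). AT5G57760 changed by -2.86 and -4.24 (difference 1.37, adjusted p = 2.2e-05). PKS1 changed by 3.37 and 2.38 (difference 0.98, adjusted p = 0.00014). FLP1 changed by -1.56 and -3.16 (difference 1.60, adjusted p = 0.00019). AT3G02910 changed by 4.63 and 3.47 (difference 1.16, adjusted p = 0.0003). For the falling genes AT5G57760 and FLP1, a higher response means a smaller decrease.

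The response was lower in wild type for the other 6. AT2G21210, a SAUR gene, changed by -1.40 in wild type and by 1.29 in BES1-RNAi (difference -2.69, adjusted p = 3.2e-07), so its direction was opposite in the 2 genotypes. AT5G64850 changed by 1.52 and 3.26 (difference -1.74, adjusted p = 6.5e-07). AT1G55960, annotated as a lipid transport protein, changed by 1.1 and 2.94 (difference -1.84, adjusted p = 2.2e-06). The non-coding AT1G08477 changed by 0.72 and 2.59 (difference -1.88, adjusted p = 4e-06). CGA1 changed by 2.61 and 4.68 (difference -2.08, adjusted p = 7.7e-06), with a mean of only 0.567 FPKM in wild-type darkness, where this scale makes changes too small. AT4G38840, a further SAUR gene, changed by 1.1 and 2.89 (difference -1.79, adjusted p = 7.7e-06). All 12 differences kept their sign and passed after median scaling, with the positive ones between 1.19 and 1.81 and the negative ones between -2.48 and -1.53. For AT4G38840 and AT1G08477 the wild-type changes themselves did not pass after median scaling (0.37 and -0.02).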

How the results depend on the processing

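The count of rising genes depended on the scaling between libraries: 810 rose without it, 641 after quantile normalization, 359 after median scaling and 354 with a replicate block and median scaling, while 446 to 458 fell under these settings. With only genes of at least 5 FPKM in the mean, 842 genes were tested, of which 578 rose and 260 fell, a lower count because fewer genes were tested. Pseudocounts of 0.1 and 0.01, other variance models and a filter at 1 FPKM gave 763 to 811 rising and 401 to 450 falling genes. Without any 1 library, 765 to 794 genes rose and 422 to 449 fell. The replicate block alone gave 823 rising and 447 falling genes, and for the genotype difference 62 higher and 96 lower, against 67 and 112. The correlations of deviations between same-numbered green and dark libraries were -0.079, 0.194 and 0.227, and not every library correlated best with its own number, so the numbers were not taken to pair the libraries. Of 161 genes named, 134 had the same direction and call under every alternative, 23 lost their call under at least 1 without a change of sign, and 1, AT2G08770, gained a call without 1 library or with weakly expressed genes left out. The sign of 3 turned under median scaling with or without the block: AT1G08477 (0.72) to -0.02, NRT2.4 (0.38) to -0.36 and GA2OX7 (0.42) to -0.32. Read depth is unknown, so low values, some of them at 0, carry an error that cannot be stated.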
